A study of Rattus norvegicus with 6 samples.

Results

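The miRNAs described here are the products of the miR-155, miR-146a, miR-146b and miR-147 genes in the lumbar spinal cord of rats with bone cancer pain (BCP). They were chosen by name, as every row of the count table called rno-miR-155, rno-miR-146a, rno-miR-146b or rno-miR-147 with either arm or no arm given. This found 7 of the 753 mature miRNAs listed, and all 7 passed the filter on low counts that left 459 for testing. The small RNA libraries, 1 for each rat, came from 3 BCP and 3 sham-operated animals on day 14 after inoculation. BCP rats received living Walker 256 cells, a rat breast carcinoma line, in the marrow cavity of the left tibia, and sham-operated rats received heat-killed cells of the same line. The labels give the strain as Wistar and the methods of the study as Sprague Dawley, the rats were female by those methods, and no source used here gave their age. The tissue was the side of the lumbar enlargement on the side of the tumor, with the meninges stripped off, so each value is an average over neurons, glia, vessels and any blood cells in the piece.

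A miRNA gene is transcribed into a hairpin, from which the 5p and 3p arms are cut. One arm, the guide, is usually kept in the silencing complex, where its seed (bases 2 to 8) pairs with target mRNAs, and the other arm is mostly lost. miR-155 and miR-146a are transcribed in macrophages, microglia and lymphocytes after NF-kB is activated: miR-155 is known as an enhancer of inflammatory signalling that represses SOCS1, and miR-146a as a brake on it that represses TRAF6 and IRAK1. miR-147 is known as a miRNA that Toll-like receptor signals induce in macrophages, and miR-146b is the paralogue of miR-146a, encoded on another chromosome.

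The mature sequences, from RefSeq on the GRCr8 assembly, show which of these miRNAs can share targets, and the seed is in capitals in each.
rno-miR-155-5p: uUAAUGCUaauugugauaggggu
rno-miR-155-3p: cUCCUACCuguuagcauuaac
rno-miR-146a-5p: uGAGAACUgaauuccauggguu
rno-miR-146a-3p: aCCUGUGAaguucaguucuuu
rno-miR-146b-5p: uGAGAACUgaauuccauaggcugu
rno-miR-146b-3p: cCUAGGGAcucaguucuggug
rno-miR-147: gUGUGCGGaaaugcuucugcua
Among 693 mature rat miRNAs in that set, the seed GAGAACU was found in miR-146a-5p and miR-146b-5p alone, and the other 5 members shared their seed with no other miRNA. Counted from the 5′ end, miR-146a-5p and miR-146b-5p were identical over their first 17 bases and at 20 of the 22 bases of miR-146a-5p (90.9%). They differed by G18A and U21C, with the base of miR-146a-5p first, and miR-146b-5p had 2 more bases at its 3′ end. The 3p arms had the same base at only 6 of 21 positions, and their longest common stretch was UCAGUUCU.

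The hairpins are shown because they give the position of each arm, with the mature arms in capitals.
Mir155: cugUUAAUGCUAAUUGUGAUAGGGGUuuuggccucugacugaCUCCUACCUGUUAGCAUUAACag
Mir146a: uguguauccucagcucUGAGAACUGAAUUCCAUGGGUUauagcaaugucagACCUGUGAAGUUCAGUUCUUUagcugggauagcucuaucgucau
Mir146b: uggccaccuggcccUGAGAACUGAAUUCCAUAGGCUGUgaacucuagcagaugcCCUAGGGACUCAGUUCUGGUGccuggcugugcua
In GRCr8, Mir155 lies at chr11:37261114-37261178 on the plus strand, within the span of Mir155hg, its long noncoding host gene. Mir146a lies at chr10:28349996-28350090 on the minus strand, within the long noncoding gene LOC134480673. Mir146b lies at chr1:255144860-255144947 on the plus strand within the span of C1h10orf95, and Mir147 at chr3:130176275-130176353 on the plus strand within the span of C3h15orf48, both protein-coding genes. Whether these positions are exonic or intronic was not analysed here, and the reads themselves were mapped by the authors to an earlier assembly, Rnor_6.0.

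Total counts per library ranged from 13464349 to 23770677, and levels are given as CPM (reads of a miRNA per 1e+06 counted reads) after TMM scaling, on which 3 counts correspond to 0.127 to 0.221 CPM. A miRNA was called where its log2 fold change exceeded 0.8 in size and its Benjamini-Hochberg adjusted p in edgeR's quasi-likelihood test was under 0.05. Of 459 miRNAs tested, 16 were called higher in BCP rats (3.49%) and 0 lower, beside 49 higher and 11 lower at an unadjusted p under 0.05. With total counts or miRBase read totals as the scaling, the calls were 16 higher and 2 lower. The 16 became 8 without BCP rat 2, 10 without BCP rat 3 and 9 without sham-operated rat 1. The median log2 fold change over all tested miRNAs was -0.0034. The 7 listed miRNAs of spinal cord tissue, among them miR-124-3p of neurons and miR-219a-2-3p of oligodendrocytes, were all detected, and 0 were called or had an unadjusted p under 0.05 in edgeR. Their summed level was 142899 to 153077 CPM in BCP rats and 138662 to 153690 CPM in sham-operated rats. Most of that sum was miR-9a-5p (means of 70762 against 62555 CPM) and miR-128-3p (56609 against 62169 CPM). Others of the list were low, such as miR-219a-5p (5.71 against 5.14 CPM) and miR-338-3p (25.3 against 24.1 CPM). Nothing in the labels links a BCP rat to the sham-operated rat of the same number.

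Of the 7 members, 5 were called higher in BCP rats (71.4% of the members, beside 3.49% of all tested miRNAs). These were both arms of miR-155, both arms of miR-146a and miR-147. Of the 5, miR-155-3p, miR-146a-3p and miR-147 passed the filter on low counts only through the BCP libraries, so the 71.4% is a description, and when each library had to hold 10 or more counts the called members were miR-155-5p and miR-146a-5p (2). Neither arm of miR-146b was called, with group means that were equal to 3 digits for the 3p arm. In the same 5 members the lowest BCP rat exceeded the highest sham-operated rat, a separation seen in 13.3% of the 459. In bulk tissue, a higher level per cell and a larger number of cells holding the miRNA cannot be told apart.

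**Figure D1:**
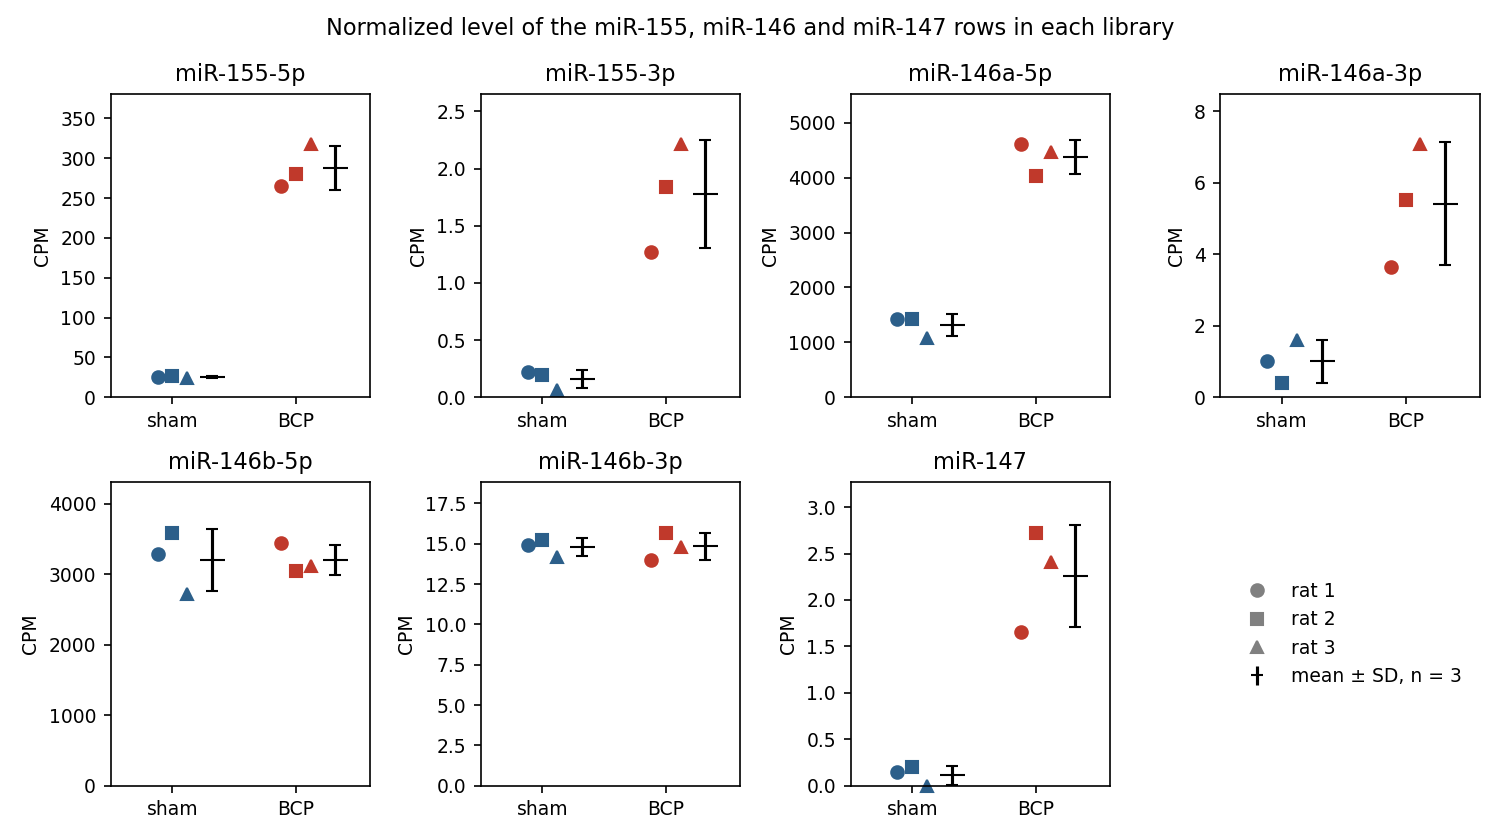
Level of each of the 7 miRNAs in each library, in TMM-scaled CPM on a linear axis of its own, with points for rats and bars for the group mean ± SD (n = 3). The groups do not overlap for miR-155-5p, miR-155-3p, miR-146a-5p, miR-146a-3p and miR-147, and they overlap for both arms of miR-146b.

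miR-155-5p, the guide arm of miR-155, was counted 6240, 3800 and 5025 times in the BCP rats and 353, 405 and 362 times in the sham-operated rats. These counts correspond to 265, 280 and 318 CPM against 25.5, 26.6 and 24.2 CPM. All 3 BCP rats were therefore about an order of magnitude above all 3 sham-operated rats, and within each group the rats were close together. The group means were 287 ± 27.4 CPM and 25.4 ± 1.21 CPM (SD, n = 3 each), an 11.3-fold ratio. The log2 fold change was 3.50 (SE 0.131, 95% interval 3.20 to 3.80, edgeR adjusted p = 1.98e-06), the smallest p of all 459. Its place in the order of mean level moved from 273 in sham-operated rats, beside miR-216b-5p, to 129 in BCP rats, between miR-138-5p, a miRNA of neurons, and miR-339-5p.

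miR-155-3p, the arm that is mostly discarded, was counted only 30, 25 and 35 times in BCP rats and 3, 3 and 1 times in sham-operated rats. The sham-operated rats were thus at or under the limit of 3 counts. Pooled over the rats, 90 counts against 7 gave a ratio of 10.7 with a counting interval of 4.98 to 27.3. This interval leaves out the spread between rats, and the 11.3-fold ratio of the 5p arm lies within it. Since the miRNA entered the test through the group where it was high, its edgeR log2 fold change of 3.40 (SE 0.446) is given as a description only.

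miR-147 was the rarest member in sham-operated rats together with miR-155-3p. It was counted 39, 37 and 38 times in BCP rats and 2, 3 and 0 times in sham-operated rats. Each BCP rat was well above the limit of 3 counts and no sham-operated rat exceeded it. Pooled counts of 114 against 5 gave a ratio of 19.0 with a counting interval of 7.89 to 59.5, which again leaves out the spread between rats. Its edgeR log2 fold change of 4.20 (SE 0.549), likewise a description, ranged from 3.61 to 4.85 without 1 rat. Its mean level in BCP rats, 2.26 ± 0.549 CPM (SD, n = 3), was still far below the 287 CPM of miR-155-5p.

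miR-146a-5p, the guide arm of miR-146a, was the most abundant member in BCP rats. It was counted 108801, 54640 and 70784 times in BCP rats and 19799, 21659 and 16193 times in sham-operated rats, or 4615, 4024 and 4477 CPM against 1427, 1424 and 1083 CPM. The lowest BCP rat was well above the highest sham-operated rat. The means were 4372 ± 309 and 1312 ± 198 CPM (SD, n = 3 each), a 3.33-fold ratio, with a log2 fold change of 1.74 (SE 0.133, 95% interval 1.43 to 2.04, edgeR adjusted p = 2.64e-04). This p was second only to that of miR-155-5p. In the order of mean level it moved from 66 to 39 of the 753.

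miR-146a-3p had 86, 75 and 112 counts in BCP rats and 14, 6 and 24 counts in sham-operated rats. The groups did not overlap, but the sham-operated rats spread over a 4-fold range of counts. Its means were 5.42 ± 1.72 and 1.00 ± 0.605 CPM (SD, n = 3 each), and the edgeR log2 fold change, again a description, was 2.42 (SE 0.443). It lay between 2.02 and 2.91 without 1 rat, and the miRNA was no longer called when sham-operated rat 1 or either of BCP rats 2 and 3 was left out.

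miR-146b-5p carries the same seed as miR-146a-5p and was the most abundant member in sham-operated rats. It was counted 81121, 41393 and 49303 times in BCP rats and 45580, 54630 and 40696 times in sham-operated rats, or 3441, 3049 and 3118 CPM against 3286, 3593 and 2722 CPM. The highest and the lowest rat both belonged to the sham-operated group. The means were 3202 ± 209 and 3200 ± 442 CPM (SD, n = 3 each), and the 95% interval of the log2 fold change was -0.28 to 0.28 (estimate 0.0011, edgeR adjusted p = 0.9997). The interval thus ended far below the 1.43 at which that of miR-146a-5p began.

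miR-146b-3p gave the same picture at a lower level, with 14.0, 15.7 and 14.8 CPM in BCP rats and 14.9, 15.3 and 14.2 CPM in sham-operated rats. The values of the groups were interleaved. The log2 fold change was 0.0023 (SE 0.119, 95% interval -0.27 to 0.28, edgeR adjusted p = 0.9997).

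**Figure D2:**
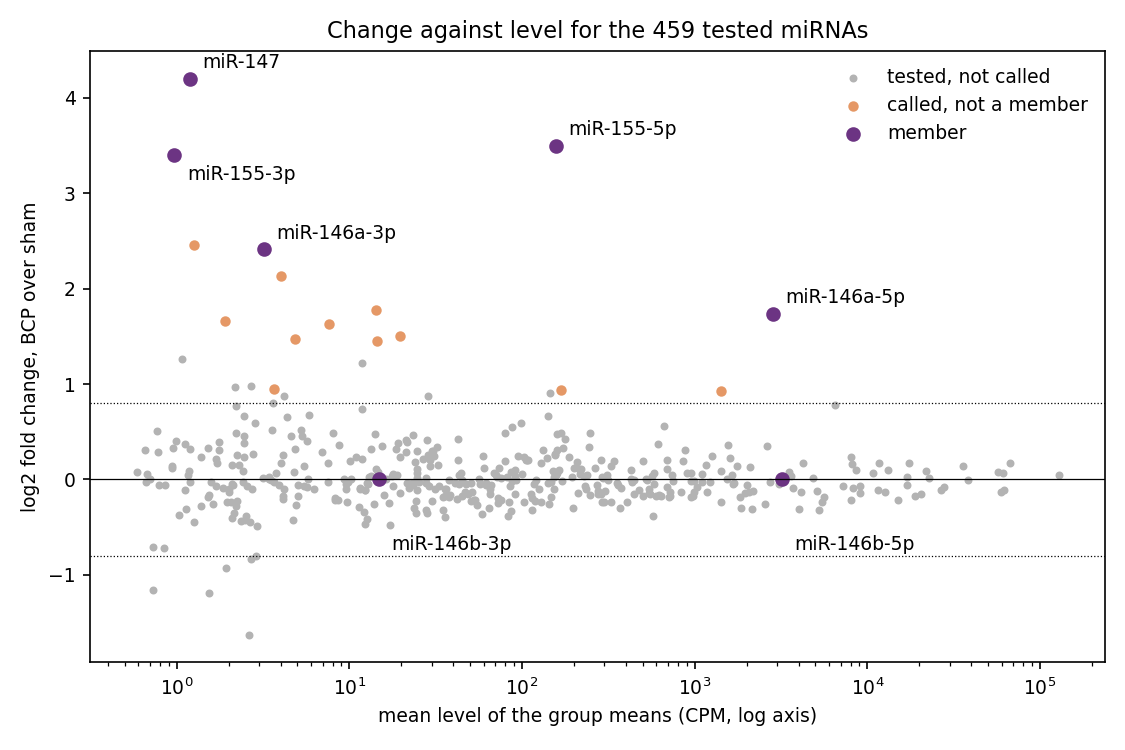
Log2 fold change (BCP over sham) of each of the 459 tested miRNAs against mean level in CPM on a log axis, with the 7 members named. Among the members, miR-147, miR-155-5p and miR-155-3p are highest (4.20, 3.50 and 3.40). The next members are miR-146a-3p and miR-146a-5p (2.42 and 1.74), and both arms of miR-146b lie at 0.00. Called miRNAs that are not members, such as miR-223-5p (2.46), lie among these values.

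The exact two-sided permutation test over rats gave p = 0.1 for miR-155-5p and for miR-146a-5p, the smallest value that 3 rats against 3 allow, and p = 1 for each arm of miR-146b. In BCP rats the members were ordered, by mean CPM, as miR-146a-5p, miR-146b-5p, miR-155-5p, miR-146b-3p, miR-146a-3p, miR-147 and miR-155-3p. The ranges overlapped only between miR-147 and miR-155-3p. In sham-operated rats miR-146b-5p stood above miR-146a-5p without overlap, the order below them down to miR-146a-3p was the same, and miR-155-3p and miR-147 again overlapped.

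miR-146a was then set directly against miR-146b within each library, a ratio in which library scaling cancels. There were 1.34, 1.32 and 1.44 reads of miR-146a-5p for each read of miR-146b-5p in BCP rats and 0.434, 0.396 and 0.398 in sham-operated rats. The order of the paralogues was thus opposite in the groups, in every rat. miR-146a-5p made up 57.7% ± 1.09 of the reads of both in BCP rats and 29.0% ± 1.07 in sham-operated rats (SD, n = 3 each). The log2 ratio differed by 1.74 (SE 0.0716, 95% interval 1.57 to 1.90, limma adjusted p = 1.89e-06).

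The 3p arms differ in sequence along most of their length. There were 0.261, 0.352 and 0.479 reads of miR-146a-3p for each read of miR-146b-3p in BCP rats and 0.0676, 0.0259 and 0.113 in sham-operated rats. No BCP rat overlapped a sham-operated rat, although miR-146b-3p stayed the more abundant in all 6. miR-146a-3p made up 26.4% ± 5.86 and 6.34% ± 3.82 of the reads of both (SD, n = 3 each), and the log2 ratio differed by 2.54 (SE 0.511). Since miR-146a-3p entered the test through the BCP libraries, these values are a description, and the pair no longer passed the limma test when sham-operated rat 1 or either of BCP rats 2 and 3 was left out.

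Of 107 such pairs of related miRNAs with the same arm, 10 differed between the groups (9.35%), 7 of them upwards. This count depended on single rats: it was 1 without BCP rat 2, 2 without BCP rat 3, 3 without sham-operated rat 1, 5 without sham-operated rat 2 and 14 without sham-operated rat 3. The pair of miR-146 5p arms passed in each of these fits (adjusted p at most 6.64e-05). The pair of miR-146 3p arms had the largest absolute difference, the pair of miR-200b-3p and miR-200c-3p followed with -1.87 (SE 0.378, limma adjusted p = 0.0174), and the pair of miR-146 5p arms came next. The exact permutation test gave p = 0.1 for the pair of miR-146 5p arms. How reads that match both miR-146 5p arms were assigned was not stated. Nor was it stated how the read length of 21 to 22 nucleotides was applied to miR-146b-5p, which has 24. The part of either in the 5p ratio and in the order of the 2 paralogues was not tested. Between the groups the mean level of miR-146a-5p differed by 3060 CPM and that of miR-146b-5p by 2.31 CPM.

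**Figure D3:**
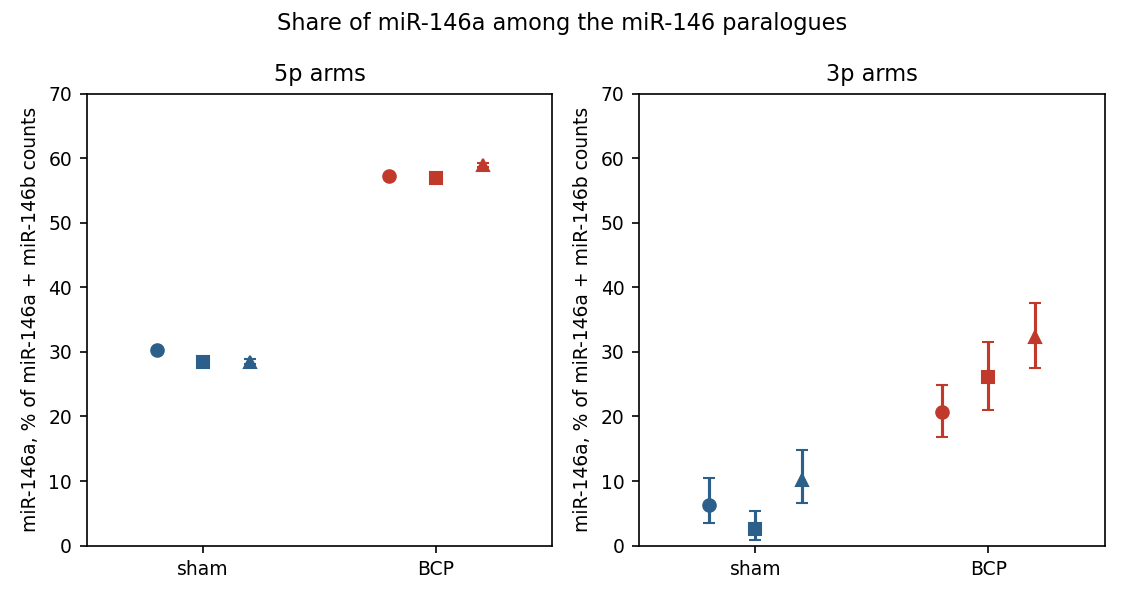
Share of miR-146a among the reads of miR-146a and miR-146b, in percent, for the 5p arms and the 3p arms in each library, with exact 95% binomial intervals as bars. For the 5p arms the BCP rats lie at 56.9% to 58.9% and the sham-operated rats at 28.4% to 30.3%, and the 3p arms also separate (20.7% to 32.4% against 2.52% to 10.2%).

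The 5p arm was the major arm of all 3 hairpins with both arms listed. The comparisons of arm use for miR-155 and miR-146a are descriptions, since their 3p arms passed the filter on low counts through the BCP libraries. The 3p arm of miR-155 gave 0.479%, 0.654% and 0.692% of the reads of both arms in BCP rats and 0.843%, 0.735% and 0.275% in sham-operated rats. The sham-operated values surrounded the BCP values, and each rested on at most 3 reads of the 3p arm. The log2 ratio of 5p to 3p differed by 0.20 (SE 0.424, 95% interval -0.81 to 1.22).

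For miR-146a the 3p arm gave 0.0790%, 0.137% and 0.158% of the reads in BCP rats and 0.0707%, 0.0277% and 0.148% in sham-operated rats, with overlap. The log2 ratio of 5p to 3p was lower in BCP rats by 0.80 on average, but its 95% interval of -2.24 to 0.64 included 0 (SE 0.602). For miR-146b the share of the 3p arm was 0.463% in BCP rats and 0.464% in sham-operated rats, and the interval of the difference in log2 ratio was -0.34 to 0.35 (limma adjusted p = 0.984). The miR-146b interval was the narrowest of the 3, and those of miR-155 and miR-146a leave room for changes of more than 2-fold.

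Across 149 pairs of arms 0 passed the limma test (0%), and 9 had an unadjusted p below 0.05. The largest absolute differences were those of miR-135b (1.15, adjusted p = 0.783), miR-146a (-0.80) and miR-539 (-0.75, adjusted p = 0.783). The median absolute difference over all pairs was 0.17 on the log2 scale.

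**Figure D4:**
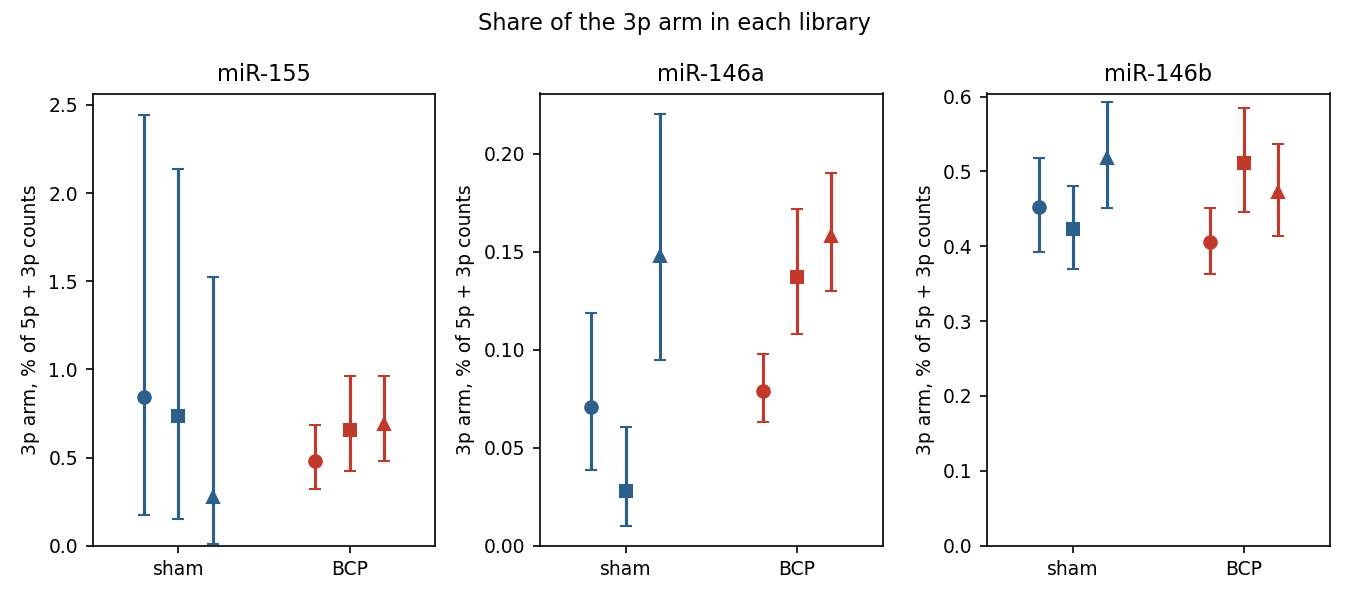
Share of the 3p arm among the reads of both arms, in percent on a linear axis for each hairpin, for miR-155, miR-146a and miR-146b in each library, with exact 95% binomial intervals as bars. The BCP and sham-operated rats overlap for each hairpin, and miR-146a has the lowest share of its 3p arm, with means of 0.125% and 0.0821%.

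As a share of all counted reads, the 7 members together made up 0.785% ± 0.0416 in BCP rats and 0.456% ± 0.0475 in sham-operated rats (SD, n = 3 each). The miR-155 arms gave 0.0288% ± 0.00261 against 0.00257% ± 8.31e-05, and the miR-146 arms 0.756% ± 0.0429 against 0.453% ± 0.0475. Most of the combined gain in CPM came from miR-146a-5p (91.8%), and 7.86% came from miR-155-5p, although the fold change of the latter was larger.

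Reads with the seed GAGAACU, from miR-146a-5p and miR-146b-5p together, were 0.799%, 0.713% and 0.749% of the library in BCP rats and 0.457%, 0.496% and 0.402% in sham-operated rats. The groups did not overlap. The summed level was 7574 ± 492 and 4512 ± 631 CPM (SD, n = 3 each), a 1.68-fold ratio beside the 3.33-fold ratio of miR-146a-5p alone. Within the 7 members, miR-146b-5p held 70.3% of the reads in sham-operated rats and 40.6% in BCP rats, while miR-146a-5p went from 28.8% to 55.4% and miR-155-5p from 0.564% to 3.66%.

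A list of 17 other miRNAs that are known to respond to inflammatory signals was set beside the members. Of these, 14 were tested, 1 was called higher and 0 lower, beside 16 higher and 0 lower among all 459 tested (3.49%). The median log2 fold change was -0.12 in the list and -0.0034 for all tested miRNAs. The 1 called was miR-223-3p, a miRNA of neutrophils and other myeloid cells, with a log2 fold change of 2.13 (SE 0.373, edgeR adjusted p = 0.0190), and this call was lost without BCP rat 2 (adjusted p = 0.0614). The other 13 tested lay between -0.30 and 0.35, among them miR-132-3p (-0.13), miR-125a-5p (-0.13), miR-221-3p (0.21) and miR-9a-3p (0.35). Several of the list were abundant in sham-operated rats, such as miR-9a-5p (62555 CPM) and miR-125a-5p (13268 CPM). Whether such levels hid a change in a small part of the cells was not tested. miR-21-5p, miR-21-3p and miR-301a-3p were listed at 0 in all 6 libraries, as were 150 of the 753 rows in all, so nothing can be read from them.

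**Figure D5:**
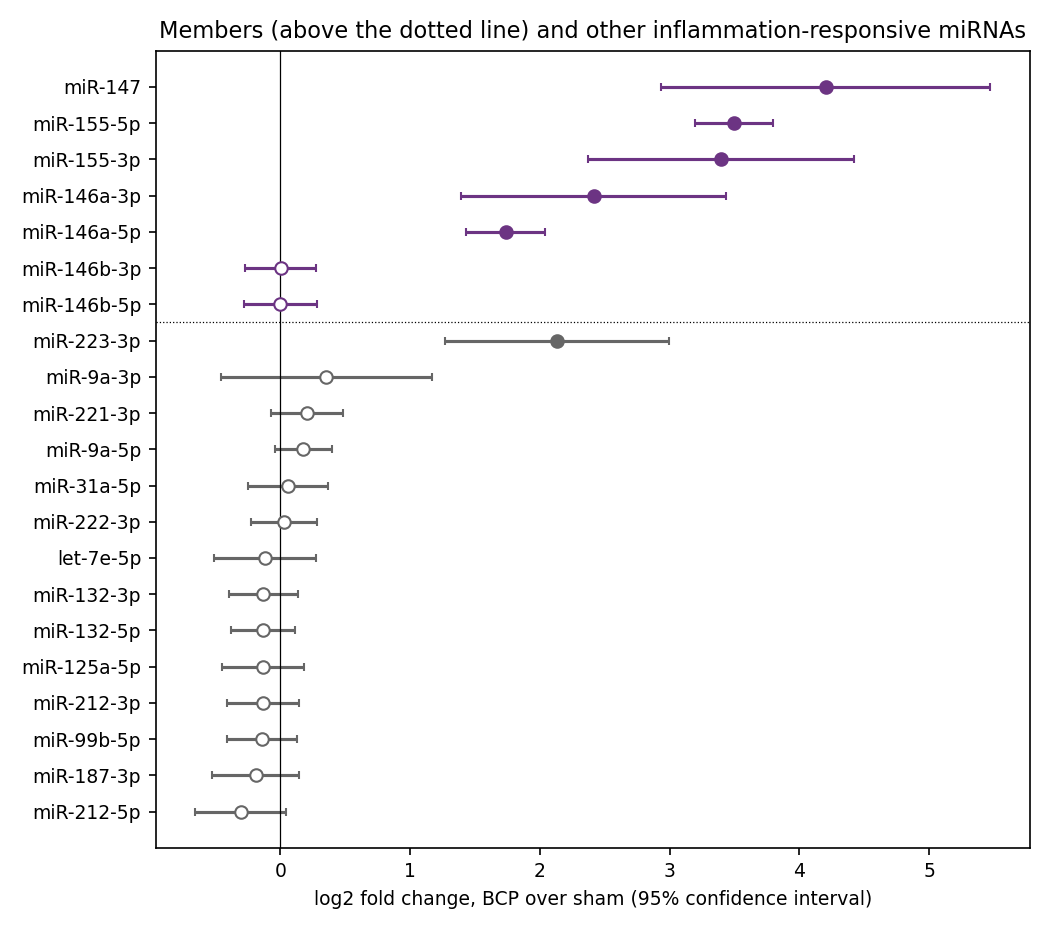
Log2 fold change (BCP over sham) with its 95% interval for the 7 members and for the tested miRNAs of the inflammation-responsive list. The 5 called members lie between 1.74 and 4.20, and the other miRNAs of the list lie between -0.30 and 0.35 apart from miR-223-3p at 2.13, with filled points for called miRNAs.

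Of 7 listed miRNAs of myeloid and lymphoid cells, 5 were tested and 2 were called higher, miR-223-3p (6.51 against 1.50 CPM) and miR-223-5p (2.15 against 0.385 CPM). miR-223-5p, with 4 to 8 counts in the sham-operated rats, passed the filter through the BCP libraries, so its log2 fold change of 2.46 is a description only. miR-150-5p, miR-342-3p and miR-342-5p had log2 fold changes of -0.13, 0.11 and 0.16 and were not called, and miR-142-3p and miR-142-5p were listed at 0. The summed level of the list was 1684 to 2128 CPM in BCP rats and 1650 to 2200 CPM in sham-operated rats. Most of that sum was miR-150-5p (means of 1131 against 1241 CPM) and miR-342-3p (715 against 662 CPM), so it hardly reflects the miR-223 arms. The 3 erythroid miRNAs in the table were also listed at 0 in all 6 libraries. These rows and those of miR-142 are among the 150 at 0 throughout, so nothing can be read from them. The part of blood cells in the levels of the members was not tested.

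Among markers of other tissues, 1 of 5 tested epithelial miRNAs was called higher, miR-200c-3p (11.6 against 3.73 CPM, log2 fold change 1.63, edgeR adjusted p = 0.00556), and the summed level of the epithelial list was 34.6 to 45.1 CPM against 22.1 to 24.7 CPM. miR-203a-3p, of skin epithelium, was at 16.6 ± 6.02 against 7.08 ± 1.59 CPM (SD, n = 3 each) without overlap of the groups, and was not called (log2 fold change 1.22, unadjusted p = 0.00377, edgeR adjusted p = 0.0692). The other 3 tested, miR-200a-3p, miR-200b-3p and miR-205, had log2 fold changes of 0.50, -0.23 and 0.0076 and were not called. None of the 5 muscle miRNAs and none of the 4 vascular miRNAs was called or had an unadjusted p under 0.05 in edgeR, with summed levels of 231 to 362 against 204 to 321 CPM and of 21298 to 30371 against 21416 to 29010 CPM. The part of other tissues in the levels of the members was not tested either.

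The miRNAs whose log2(CPM + 1) followed miR-155-5p most closely over the 6 libraries were miR-223-5p (Pearson r = 0.987), miR-130b-5p (0.983), miR-147 (0.983), miR-155-3p (0.979) and miR-210-3p (0.975), next to miR-146a-5p (0.988). Those most like miR-146a-5p, next to miR-155-5p (0.988), were miR-130b-5p (0.992), miR-223-5p (0.988), miR-18a-3p (0.984), miR-200c-3p (0.976) and miR-147 (0.968). The libraries form the 2 study groups, so these values mainly restate that each miRNA was higher in all BCP rats, and they are descriptions without a test.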

How the data were processed

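Small RNA of 3 BCP and 3 sham-operated rats was compared on day 14. The deposited values are raw read counts per mature miRNA, without normalization. Reads were filtered by the authors with the FASTX Toolkit, those of 18 to 40 nucleotides were mapped to Rnor_6.0 (Bowtie2 2.2.3 in the submitters' processing notes), and miRBase together with a read length of 21 to 22 nucleotides defined the known miRNAs. The handling of reads with several matches, and of members longer than 22 nucleotides, was not given in the sources used here. No normalised values were used.

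The counts were fitted with edgeR 4.0.16 under R 4.3.3 (filterByExpr, minimum count 10, TMM, quasi-likelihood test, Benjamini-Hochberg adjustment). A call required a log2 fold change over 0.8 in size and an adjusted p under 0.05. Log2 ratios of arms and of paralogues within a library (0.5 added to each count) were tested across all pairs with limma 3.58.1. Single values were compared with exact two-sided permutation tests. Shares are percentages of counted reads. Their binomial intervals, the counting intervals and the limit of 3 counts cover counting error only, and PCR copies of 1 molecule could not be told apart. Intervals of log2 fold changes and of log2 ratios come from the edgeR and limma fits over rats. The miRNAs named are the members, the listed marker and inflammation-responsive miRNAs, the 5 most correlated with miR-155-5p and the 5 with miR-146a-5p, other than each other, the pairs with the 3 largest differences, and neighbours in the order of level. The members and lists were chosen with earlier results of these data known. DESeq2 1.42.0 and other settings served as alternatives.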

Additional observations from a re-analysis of the deposited data

How the results depend on the processing

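The same 5 members were called without the low-count filter, with total counts, RLE scaling, miRBase read totals, DESeq2, the edgeR exact and likelihood ratio tests and limma-voom. When each library had to hold 10 or more counts, 2 were called, because miR-155-3p, miR-146a-3p and miR-147 were then not tested. Leaving out 1 rat at a time gave 4 to 5 called members, 8 to 20 called miRNAs in all, 0 to 1 in the inflammation-responsive list, and log2 fold changes of 3.41 to 3.54 for miR-155-5p, 1.58 to 1.80 for miR-146a-5p, 3.004 to 3.62 for miR-155-3p and 3.61 to 4.85 for miR-147. The likelihood ratio test called 25 in all. Correlations of the deviations from the group mean were 0.109, -0.452 and 0.711 between rats of the same number. Between rats of different numbers they ranged from -0.733 to 0.746. With 3 rats in each group these values cannot decide whether the numbers pair the rats. A replicate block called 18 miRNAs, 5 of them members.

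The fold changes of miR-146b changed sign around 0. miR-146b-5p was at -0.0035 without the filter, -0.0085 with total counts, -0.021 with RLE scaling, -0.023 with miRBase read totals, -0.021 with DESeq2, and -0.13 to 0.088 without 1 rat. miR-146b-3p was at -0.0045, -0.010, -0.021, -0.025 and -0.022 in that order, -0.0029 with limma-voom, and -0.059 to 0.027 without 1 rat. The difference in arm ratio was -0.042 for miR-155 with a pseudocount of 0.1 and -0.0012 for miR-146b from the edgeR fold changes. Without 1 rat it was -0.039 to 0.59 for miR-155, -1.36 to -0.19 for miR-146a and -0.088 to 0.082 for miR-146b. The paralogue difference was 1.70 to 1.78 for the 5p arms and 1.98 to 3.002 for the 3p arms.

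Against the reads that the study assigned to miRBase, of which the table holds 78.0% to 80.1%, the share of the 7 members was 0.618% in BCP and 0.363% in sham-operated rats, and without 1 rat 0.763% to 0.805% and 0.434% to 0.481% of counted reads. With 3 rats in each group, arm ratios that rest on 1 to 3 reads of a 3p arm could not show a moderate change.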
